A study of Bos taurus with 9 samples.

Results

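Levels of 9 transcription factors that mark or specify the uterine gland epithelium were followed in bovine gland fragments kept in 3D culture. The factors were FOXA1, FOXA2, SOX17, PAX8, SOX9, MSX1, EMX2, HOXA10 and HOXA11. They were chosen by name, and each had 1 entry among the 20679 genes of the count and TPM files. The fragments were epithelial glands taken from abattoir uteri at the mid-luteal stage, and every library came from day 5 of culture. The CYST group was kept in Matrigel without EGF and formed cysts. The MAT group was kept in Matrigel with 5 ng/ml EGF and formed uterine gland-like structures (UG-LIKE structures). The MAT + COL group had the same EGF and 0.5 mg/ml collagen I added to the Matrigel. All groups shared the base medium, with insulin, transferrin, selenite, ascorbic acid and BSA, and each group held 3 libraries with replicate numbers 1 to 3. Uncultured glands were not analysed here, so the values compare culture conditions with each other and not with the gland in the animal.

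The uterus, its glands and the oviduct arise from the Müllerian duct, and the factors fall into a few families with separate roles in that lineage. HOX genes set position along the duct, with HOXA10 and HOXA11 in the part that becomes the uterus. EMX2 and PAX8 belong to the early urogenital programme, and PAX8 with SOX17 stays on in adult Müllerian epithelium. FOXA2 is the forkhead factor of uterine glands and is needed for gland development in mice, and SOX9 is found in glandular epithelium. MSX1 is a homeobox repressor of uterine epithelium whose level in mice changes around implantation.

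Total counts per library ranged from 6568968 to 17948600, with a median of 16665013. CPM is the count of a gene scaled by this total. The epithelial label was checked against 7 epithelial markers (EPCAM, CDH1, KRT8, KRT18, KRT19, CLDN4 and MUC1), whose summed TPM, a count scaled by gene length and by the library, was 17806 to 19262 in CYST, 28655 to 44514 in MAT and 29681 to 39585 in MAT + COL. KRT8 (mean TPM of 8314 in CYST and 15490 in MAT) and KRT19 (7751 and 17274) held most of these sums. The sums therefore mainly follow these keratins and not all of the markers. The sum over 11 stromal markers was 2260 to 4881 in CYST, 1209 to 3800 in MAT and 2232 to 4318 in MAT + COL, so the fragments were not free of stromal transcripts. The sum over 5 smooth muscle markers was 149 to 188 in CYST, 40.5 to 88.6 in MAT and 73.5 to 94.9 in MAT + COL. The endothelial sums lay between 8.26 and 26.1, the immune sums between 19.3 and 48.3 and the ciliated-cell sums between 31.6 and 97.6 over all libraries, with overlapping groups. CD79A of B cells was at 0 in all 9 libraries. In these bulk libraries a change in the number of cells of a type and a change in RNA per cell cannot be told apart.

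The factors covered a wide range of levels. By median TPM over the 9 libraries the order was MSX1, PAX8, EMX2, SOX9, FOXA2, HOXA10, SOX17, FOXA1 and HOXA11. Of neighbours in this order, MSX1 and PAX8 did not overlap in their ranges over libraries, and every other neighbouring pair did. PAX8 was above EMX2 in 8 of 9 libraries, EMX2 above SOX9 in 8 and SOX9 above FOXA2 in 9. The last 2 places, FOXA1 above HOXA11, held in 3 libraries. MSX1, PAX8, EMX2, SOX9 and FOXA2 were over 3 reads and above 1 TPM in every library, while HOXA10 was at 3 reads in 1 MAT library.

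The 3 pairs of groups were compared with edgeR's quasi-likelihood test on the counts, two-sided, with Benjamini-Hochberg adjustment over all genes tested and a call at an adjusted p under 0.05. Log2FC is the first group minus the second on the log2 scale. Libraries with the same replicate number deviated from their group means together, so each comparison is also given with the replicate number as a block. FOXA1, SOX17 and HOXA11 did not pass the filter on low counts, and 6 of the 9 factors were tested in each comparison. MAT versus CYST and MAT + COL versus CYST share the CYST libraries, and both comparisons of MAT share the MAT libraries, so their values are not independent.

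In MAT versus CYST, 0 of the 6 tested factors were called without the block, beside 1.79% of the 12074 genes tested. In that fit 2496 genes, 20.7% of those tested, had an unadjusted p under 0.05, 1 of the 6 factors among them, MSX1. With the replicate block 1 of the 6, MSX1, was called higher in MAT, beside 10.6% of genes called in either direction and 4.9% called higher. An unadjusted p under 0.05 was found in this fit for 28% of genes and for 2 of the 6, MSX1 and SOX9. DESeq2, which has no replicate block here, also called 1 factor, MSX1, beside 1278 genes or 10.6% of the 12074 genes entered. It gave HOXA10 no adjusted p, so not all 6 factors could be called by it. The count of 1 in 6 is near these background shares. The median Log2FC over the 6 was 0.49 without the block and 0.46 with it, where the medians over all genes tested were 0.012 and 0.005. The TPM of the groups did not overlap for 2 of the 6, MSX1 and HOXA10, beside 23.7% of all genes tested. Of the 6, 4 moved one way in TPM in all 3 replicate numbers, beside 49.8% of all genes.

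**Figure D1:**
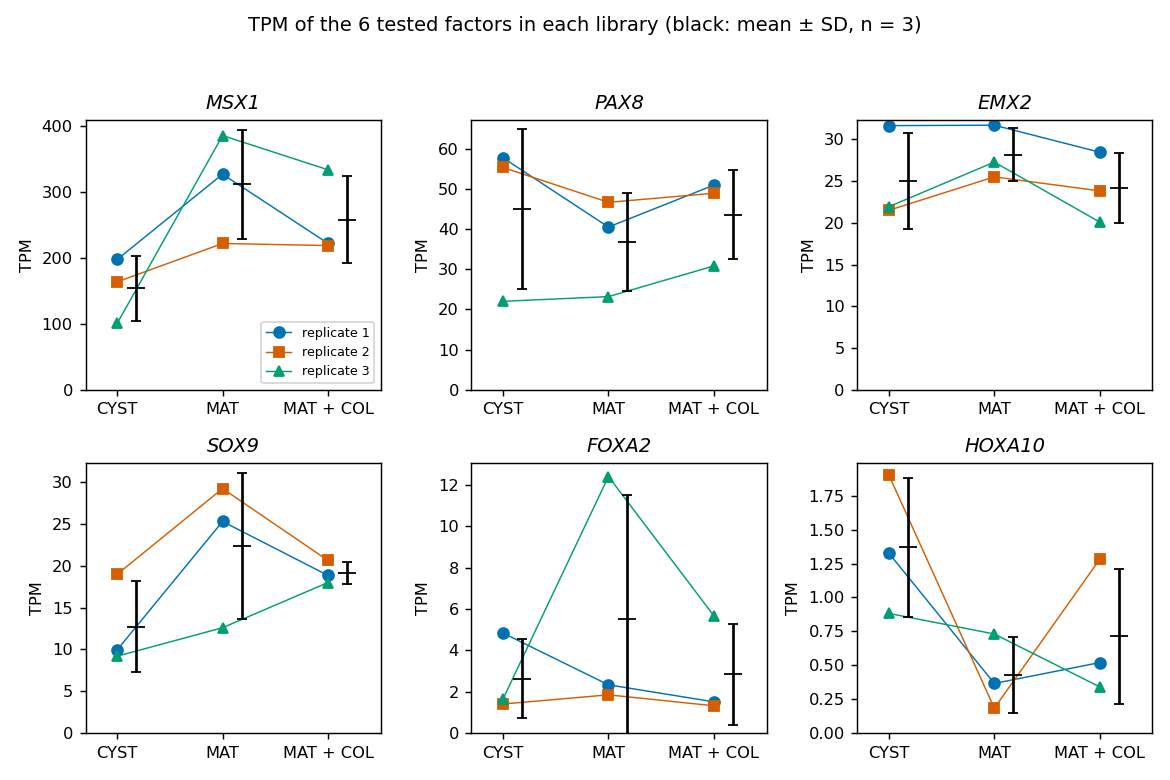
TPM (linear vertical axes from 0) of MSX1, PAX8, EMX2, SOX9, FOXA2 and HOXA10 in the CYST, MAT and MAT + COL libraries, with lines joining libraries of one replicate number and black marks for the mean ± SD of 3 libraries; the part of a bar below 0 is not drawn. The 3 MSX1 values of CYST lie below all those of MAT and MAT + COL, the PAX8 values of replicate 3 lie below those of the other replicates in each group, and FOXA2 is high in MAT replicate 3.

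MSX1 (ENSBTAG00000010875) had the highest level of the 9 factors and ranked between 365 and 1521 of all genes by TPM. Its TPM in CYST was 197.3, 163.4 and 100.3 in replicates 1, 2 and 3. In MAT it was 326.5, 221.5 and 385.1. In MAT + COL it was 221.7, 218.4 and 333.2. All 6 libraries with EGF were above all 3 without it, and the mean was 153.7 ± 49.2 TPM in CYST, 311.0 ± 82.9 in MAT and 257.8 ± 65.4 in MAT + COL (SD, n = 3). The ratio of MAT to CYST within a replicate number was 1.65, 1.36 and 3.84, so the ratio was largest in replicate 3.

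With the replicate block, the Log2FC of MSX1 in MAT versus CYST was 1.02 ± 0.25 (SE), a fold of 2.03, with an adjusted p of 0.0422 in edgeR's quasi-likelihood test and a 95% confidence interval from 0.44 to 1.60. Without the block the Log2FC was 1.04 ± 0.27 with an interval from 0.41 to 1.67, and the adjusted p of 0.0882 missed the threshold. When both libraries of replicate 1 were left out of the blocked fit, a choice made after seeing the data, the adjusted p was 0.176 with a Log2FC of 1.20. Without replicate 2 the adjusted p was 0.0295 with a Log2FC of 1.26, and without replicate 3 it was 0.0274 with a Log2FC of 0.66. In edgeR's quasi-likelihood test the call for MSX1 thus rested on the block, and it was lost without replicate 1 although the Log2FC was larger there. These fits held fewer libraries per group, so the lost call does not show that replicate 1 carried the difference. The sign of the difference was the same in each of these fits.

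Most epithelial markers moved with MSX1. In MAT versus CYST with the block, 4 of the 7 epithelial markers were called higher, beside 4.9% of all genes, EPCAM with a Log2FC of 0.70, KRT8 with 0.88, KRT19 with 1.09 and MUC1 with 2.01. CDH1 with 0.595, KRT18 with 0.12 and CLDN4 with −0.26 were not called (adjusted p = 0.0646, 0.851 and 0.485, edgeR's quasi-likelihood test). In all, 6 of the 7 had a positive Log2FC and 1 a negative one. Of 10 tested stromal markers, 8 had a negative Log2FC and 2 a positive one. Among them DCN, the matrix proteoglycan decorin, was called lower with a Log2FC of −1.12 and VIM was called higher with 1.05. Of 5 smooth muscle markers, TAGLN was called lower with −1.57. Without the block 0 of these markers were called by edgeR's quasi-likelihood test, with adjusted p of 0.0728 for EPCAM, 0.0566 for KRT8, 0.0662 for KRT19, 0.119 for MUC1, 0.376 for DCN, 0.101 for VIM and 0.103 for TAGLN. At an unadjusted p under 0.05 that fit had 5 of 7 epithelial, 1 of 10 stromal and 2 of 5 smooth muscle markers, beside 20.7% of all genes. DESeq2 called 4, 1 and 1 of these markers, beside 10.6% of all genes. Divided by the TPM of EPCAM in the same library, MSX1 was 0.478, 0.363 and 0.254 in CYST, 0.489, 0.290 and 0.605 in MAT, and 0.306, 0.299 and 0.585 in MAT + COL. On this scale, chosen after seeing the data, the groups overlapped and replicate 2 was lower in MAT than in CYST. This overlap holds for EPCAM as the divisor, a gene that was itself called higher in MAT. KRT18 was at 697.9, 458.1 and 291.8 TPM in CYST, 478.8, 321.0 and 833.0 in MAT, and 293.1, 275.8 and 865.4 in MAT + COL. Its pattern differed from that of EPCAM, so the scaled values depend on the marker picked. The part of these markers in the MSX1 result was not tested.

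SOX9 (ENSBTAG00000045824) is an HMG-box factor of progenitor and glandular epithelium. Its TPM was 9.94, 19.0 and 9.18 in CYST, 25.3, 29.2 and 12.6 in MAT, and 18.8, 20.6 and 17.99 in MAT + COL. MAT was above CYST in each replicate number, by ratios of 2.55, 1.54 and 1.37, but MAT replicate 3 lay below CYST replicate 2, so the groups overlapped. The means were 12.7 ± 5.45, 22.4 ± 8.70 and 19.2 ± 1.35 TPM (SD, n = 3). Its Log2FC in MAT versus CYST was 0.82 without the block, with a 95% interval from −0.038 to 1.68 and an adjusted p of 0.260 in edgeR's quasi-likelihood test. With the block it was 0.79, with an interval from 0.16 to 1.42 and an adjusted p of 0.104. Leaving out replicate 3 in the blocked fit gave a Log2FC of 1.05 and an adjusted p of 0.0332, so SOX9 passed the threshold there and in no other fit tried.

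FOXA2 (ENSBTAG00000012407) was present in every library at low counts, from 18 to 192 reads. Its TPM was 4.83, 1.40 and 1.64 in CYST, 2.33, 1.84 and 12.4 in MAT, and 1.504, 1.31 and 5.67 in MAT + COL. The groups overlapped, and MAT replicate 3, followed by MAT + COL replicate 3, held the highest values of the 9. The ratio of MAT to CYST was 0.482, 1.32 and 7.57 in replicates 1, 2 and 3, so the replicates did not share a direction. The Log2FC in MAT versus CYST was 1.14 without the block, with a 95% interval from −0.84 to 3.11 (adjusted p = 0.497, edgeR's quasi-likelihood test), and 0.75 with it, from −0.96 to 2.47. Without MAT replicate 3 the Log2FC was −0.34, so the sign rested on that library. The entry counted for FOXA2 spans 4688 bases, and the RefSeq gene of that name on the same assembly spans 67552 bases. Whether the 2 annotations differ in the exons counted was not examined.

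PAX8 (ENSBTAG00000019354), the paired-box factor of Müllerian epithelium, was expressed in all 9 libraries. Its TPM was 57.7, 55.3 and 22.0 in CYST, 40.5, 46.6 and 23.2 in MAT, and 50.9, 48.9 and 30.8 in MAT + COL. Replicate 3 was the lowest of its group each time, and its 3 libraries lay below the other 6. The group means of 45.0 ± 19.97, 36.8 ± 12.2 and 43.6 ± 11.1 TPM (SD, n = 3) overlapped widely. Its Log2FC in MAT versus CYST was −0.26 without the block, with a 95% interval from −1.08 to 0.56, and −0.24 with it, from −0.70 to 0.22 (adjusted p = 0.729 and 0.478, edgeR's quasi-likelihood test). The blocked interval holds changes from a fall by 0.70 to a rise of 0.22 on the log2 scale.

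EMX2 (ENSBTAG00000003027), a homeobox factor of the early urogenital tract, had the smallest ratio of highest to lowest TPM among the 6 tested factors. Its TPM was 31.7, 21.5 and 21.9 in CYST, 31.7, 25.5 and 27.3 in MAT, and 28.5, 23.8 and 20.1 in MAT + COL. The groups overlapped, with means of 25.04 ± 5.74, 28.2 ± 3.19 and 24.1 ± 4.20 TPM (SD, n = 3). Its Log2FC in MAT versus CYST was 0.16 without the block, with a 95% interval from −0.40 to 0.72, and 0.18 with it, from −0.31 to 0.66 (adjusted p = 0.765 and 0.627, edgeR's quasi-likelihood test).

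HOXA10 (ENSBTAG00000040082) was the only tested factor besides PAX8 with a negative Log2FC in MAT versus CYST. It had 14, 39 and 12 reads in CYST, 3, 4 and 12 in MAT, and 11, 28 and 7 in MAT + COL. In TPM this was 1.33, 1.90 and 0.882 in CYST, 0.365, 0.183 and 0.730 in MAT, and 0.519, 1.28 and 0.340 in MAT + COL. All 3 MAT libraries were below all 3 CYST libraries in TPM, and MAT + COL overlapped with both groups. The Log2FC in MAT versus CYST was −1.64 without the block, with a 95% interval from −3.38 to 0.10 (adjusted p = 0.265, edgeR's quasi-likelihood test), and −1.78 with it, from −3.84 to 0.28 (adjusted p = 0.239). The summed count over the 9 libraries was 130 reads, and at this depth a difference of this size was not separated from the spread between libraries.

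**Figure D2:**
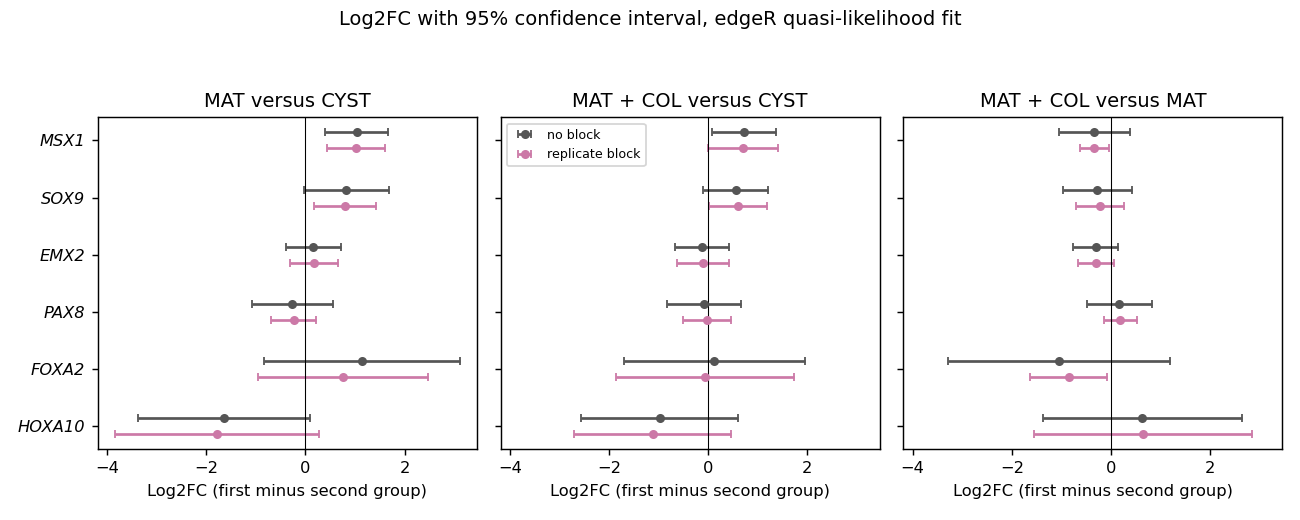
Log2FC (horizontal axes, first group minus second) with 95% confidence intervals for the 6 tested factors in the 3 comparisons, without the block in grey and with the replicate block in pink. In MAT versus CYST the intervals of MSX1 exclude 0 in both fits, and the intervals of FOXA2 and HOXA10 are the widest in each comparison without the block.

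Collagen I was compared by setting MAT + COL against MAT, both with EGF. Here 0 of the 6 tested factors were called, with or without the block, beside 0% of the 12470 genes tested. By edgeR's quasi-likelihood test 51 genes (0.409%) had an unadjusted p under 0.05 without the block and 618 (4.96%) with it, of which 0 and 2 were among the 6 factors. DESeq2 called 0 genes, so 0 of the 6. The median Log2FC over the 6 was −0.29 without the block and −0.27 with it, where the medians over all genes were −0.0005 and 0.0022. No tested factor had groups that did not overlap in TPM, beside 3.57% of all genes. Of the 6, 4 moved one way in all 3 replicate numbers, beside 28.3% of all genes, namely MSX1, EMX2 and FOXA2 with lower TPM in MAT + COL and PAX8 with higher TPM.

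FOXA2 had a ratio of MAT + COL to MAT of 0.646, 0.712 and 0.457 in replicates 1, 2 and 3. With the block its Log2FC was −0.86 with a 95% interval from −1.63 to −0.08, an unadjusted p of 0.0336 and an adjusted p of 0.955 in edgeR's quasi-likelihood test. MSX1 had ratios of 0.679, 0.986 and 0.865, and a blocked Log2FC of −0.34 with an interval from −0.64 to −0.04, an unadjusted p of 0.0295 and the same adjusted p. Both failed the adjustment over all genes, and without the block their intervals ran from −3.29 to 1.18 and from −1.06 to 0.37. PAX8 had ratios of 1.26, 1.05 and 1.33, and a blocked Log2FC of 0.19 with an interval from −0.15 to 0.53. EMX2 had a blocked Log2FC of −0.31 (−0.68 to 0.06), SOX9 of −0.22 (−0.70 to 0.25) and HOXA10 of 0.64 (−1.56 to 2.84), none of them called. Of 10 tested stromal markers, 8 had a positive blocked Log2FC and 2 a negative one, with a median of 0.46. Of 7 epithelial markers, 1 was positive and 6 negative, with a median of −0.11. By edgeR's quasi-likelihood test 6 stromal and 1 epithelial marker had an unadjusted p under 0.05 with the block, beside 4.96% of genes. Without it 0 and 0 did, beside 0.409%, and 0 of these markers were called in either fit. The part of these markers in the factor values was not tested.

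In MAT + COL versus CYST, 0 of the 6 were called without the block, beside 1.49% of the 12509 genes tested, and 0 with it, beside 5.26%. In edgeR's quasi-likelihood test 2709 genes (21.7%) had an unadjusted p under 0.05 without the block and 3295 (26.3%) with it. Of the 6 factors, 1 was among them in each fit, MSX1 without the block and SOX9 with it. DESeq2 called 0 of the 6, beside 12.2% of the genes tested. MSX1 was the 1 tested factor whose groups did not overlap in TPM, beside 24.7% of all genes, with ratios of 1.12, 1.34 and 3.32 within replicate numbers. Of the 6, 3 moved one way in all 3 replicate numbers, beside 49.5% of all genes. For MSX1 the Log2FC was 0.72 without the block, with a 95% interval from 0.08 to 1.37 (adjusted p = 0.184), and 0.70 with it, from −0.0045 to 1.41 (adjusted p = 0.192). Without MAT + COL replicate 3 the unblocked Log2FC was 0.43, and the blocked one without both libraries of replicate 3 was 0.28, so the size of the difference rested on replicate 3. SOX9 had a blocked Log2FC of 0.60 with an interval from 0.02 to 1.18 and an adjusted p of 0.176. HOXA10 had −1.12 (−2.70 to 0.47), EMX2 −0.11 (−0.63 to 0.41), FOXA2 −0.060 (−1.86 to 1.74) and PAX8 −0.028 (−0.50 to 0.45) in the same fit.

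FOXA1, SOX17 and HOXA11 were close to the limit of detection in most libraries. FOXA1 (ENSBTAG00000013888), a forkhead factor that opens chromatin in hormone-responsive epithelia, had 0, 1 and 0 reads in CYST, 0, 1 and 4 in MAT, and 8, 1 and 15 in MAT + COL. The sum over the 9 libraries was 30 reads, of which MAT + COL held 24, almost all in replicates 1 and 3. SOX17 (ENSBTAG00000005748), an HMG-box factor of Müllerian epithelium, had 2 reads in each CYST library, 0, 1 and 1 in MAT, and 0, 0 and 11 in MAT + COL. All but 1 library, MAT + COL replicate 3, were at or under 3 reads. HOXA11 (ENSBTAG00000014738), a HOX factor of the uterus, had 0, 2 and 4 reads in CYST, 0, 0 and 4 in MAT, and 0, 1 and 0 in MAT + COL.

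A library with 0 reads of a gene allows up to 3 reads, which is a CPM between 0.167 and 0.457 over the 9 libraries, for counting error only. The highest value of FOXA1 was a CPM of 0.900 in MAT + COL replicate 3, and the highest of SOX17 was 0.660 in the same library. No fold is given for these genes, and differences between groups were not tested, since the genes did not pass the filter on low counts. The FOXA1 entry spans 14606 bases in the deposited annotation and 3784 in RefSeq, so its TPM, which is per length, may differ under another gene model.

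**Figure D3:**
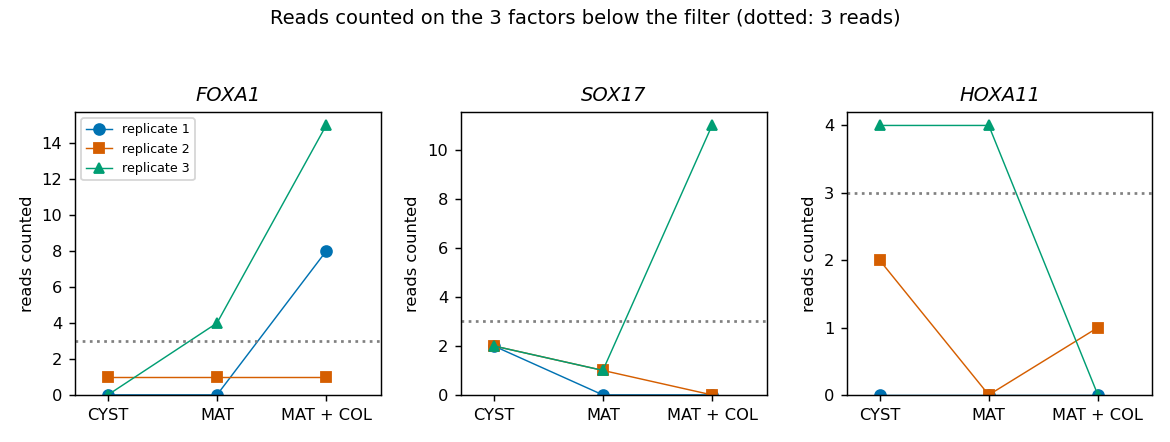
Reads counted (linear vertical axes from 0) for FOXA1, SOX17 and HOXA11 in each library, with lines joining libraries of one replicate number and a dotted line at 3 reads. Most points lie at or under the line, and FOXA1 and SOX17 reach 15 and 11 reads in MAT + COL replicate 3.

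The replicate number accounted for a different share of the variation in each factor. Of the variance of log2 CPM over the 9 libraries, PAX8 had 87.0% between replicate numbers and 5.44% between groups. FOXA2 had 48.3% and 11.6%, and EMX2 had 42.3% and 35.6%. For these 3 factors the replicate number held more of the variance than the culture condition did. MSX1 had 9.60% between replicate numbers and 63.1% between groups, HOXA10 had 2.68% and 54.7%, and SOX9 had 28.2% and 49.8%. The median over the 12858 genes that passed the filter on all 9 libraries was 32.0% and 29.9%, and these shares are a description with no test.

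As a description over the 9 libraries, which share groups and replicate numbers, the genes with a pattern of log2 CPM most like each factor were also listed. MSX1 was most like REPS1 (Pearson r of 0.986) and DSP (0.977), which encodes the desmosomal protein desmoplakin. PAX8 was most like KIF3B (0.987) and the gene ENSBTAG00000005150 (0.976). SOX9 was most like ZNF761 (0.969) and AFAP1 (0.958), and FOXA2 was most like HNRNPU (0.973) and an entry named RPL17_2 (0.969). HOXA10 was most like HOXA6 (0.961), which lies 17985 bases away in the same cluster, and WLS (0.936), a carrier of Wnt ligands. EMX2 had the lowest values, with ZMYND12 (0.940) and NUDT2 (0.916). Between the factors themselves, r ranged from −0.65 for SOX9 with HOXA10 to 0.69 for FOXA2 with MSX1.

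Relatives of the factors were described by list. Without the block 0 genes of any of the 6 lists below were called in any of the 3 comparisons by edgeR's quasi-likelihood test. At an unadjusted p under 0.05 there were 11 of 51 tested in MAT versus CYST, 9 of 52 in MAT + COL versus CYST and 0 of 52 in MAT + COL versus MAT, beside 20.7%, 21.7% and 0.409% of all genes. DESeq2 called 4, 4 and 0 of the listed genes in this order, beside 10.6%, 12.2% and 0% of all genes. With the block, 0 of 6 tested forkhead relatives were called in MAT versus CYST, with a median Log2FC of 0.23. FOXO1, a forkhead factor of hormone-responsive endometrium, had the highest TPM of these and a Log2FC of −0.91 (adjusted p = 0.112). Of SOX relatives 0 of 4 were called with a median of 0.44, and SOX4, the highest, had 0.34 (adjusted p = 0.303). The median of all genes tested in this fit was 0.005.

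Among other Müllerian and homeobox factors 0 of 7 tested genes were called, with a median of 0.40. DLX5, a homeobox factor of uterine glands in mice, had the highest TPM, between 134.7 and 294.0 over the libraries, and a Log2FC of 0.40 (adjusted p = 0.164). LHX1 and EMX1 of this list, and SOX2 and SOX21 of the SOX list, had 0 reads in all 9 libraries.

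The other HOX genes on the list, neighbours and paralogs of HOXA10 and HOXA11, had a median Log2FC of −0.56 in MAT versus CYST with the block, and 7 of the 9 tested were negative, but 0 were called. HOXB9 had the highest TPM, with 26.9, 24.05 and 8.60 in CYST, 33.8, 27.4 and 11.2 in MAT, and 34.5, 26.9 and 9.32 in MAT + COL. Its Log2FC was 0.29 (adjusted p = 0.525), and replicate 3 was the lowest of each group, as it was for PAX8. HOXA6 was not called, with a Log2FC of −1.32 (adjusted p = 0.237). HOXC10 and HOXC11 had 0 reads in all 9 libraries.

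Of 13 tested epithelial transcription factors 2 were called higher in MAT than in CYST with the block and 0 lower, beside 4.9% of all genes called higher and 10.6% called in either direction, with a median of 0.25. GRHL3, a grainyhead-like factor of epithelial barriers, was at 0, 0.152 and 0.257 TPM in CYST, 0, 1.06 and 4.51 in MAT, and 0.696, 1.60 and 3.11 in MAT + COL. Its Log2FC was 3.41 in MAT versus CYST (adjusted p = 0.0333) and 3.75 in MAT + COL versus CYST (adjusted p = 0.0373). GRHL3 had 561 reads over the 9 libraries, with low values in CYST and 0 in replicate 1 of both CYST and MAT. EHF, an ETS factor of epithelia and the highest of the list, was at 218.7, 382.6 and 489.5 TPM in CYST, 515.2, 833.8 and 706.6 in MAT, and 592.5, 819.4 and 709.5 in MAT + COL. All libraries with EGF were above all without, and its Log2FC was 0.95 in MAT versus CYST (adjusted p = 0.0382) and 0.96 in MAT + COL versus CYST, where the adjusted p of 0.0627 missed the threshold. DESeq2, without a block, called 2 of these 13 in MAT versus CYST, ELF3 and TFAP2C, and 2 in MAT + COL versus CYST, ELF3 and GRHL3.

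Of 12 tested regulators and targets of the factors 1 was called higher and 1 lower in MAT than in CYST with the block, beside 10.6% of all genes, with a median of −0.13. TFF3, a secreted trefoil peptide, was at 74.6, 35.6 and 145.6 TPM in CYST, 415.0, 807.0 and 410.5 in MAT, and 413.3, 1010 and 430.8 in MAT + COL. Its groups with EGF did not overlap with CYST, and its Log2FC was 2.77 in MAT versus CYST (adjusted p = 0.0265) and 2.82 in MAT + COL versus CYST (adjusted p = 0.0627). WNT5A, a Wnt ligand of uterine mesenchyme, was at 42.3, 54.2 and 51.1 TPM in CYST, 29.0, 15.9 and 31.6 in MAT, and 25.7, 28.5 and 30.2 in MAT + COL. Its Log2FC was −1.02 in MAT versus CYST (adjusted p = 0.0416) and −0.87 in MAT + COL versus CYST (adjusted p = 0.0403). AGR2, an endoplasmic reticulum protein of secretory cells, had the highest TPM of the list and a Log2FC of −0.30 in MAT versus CYST (adjusted p = 0.450). TFF3 and WNT5A were also the 2 genes of this list that DESeq2 called in MAT versus CYST and in MAT + COL versus CYST.

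In MAT + COL versus MAT 0 genes of these lists were called with or without the block, and 1 of 52 tested had an unadjusted p under 0.05 with it. The values with the block are from edgeR's quasi-likelihood test. Epithelial, stromal and smooth muscle markers are given above for MAT versus CYST, and epithelial and stromal ones for MAT + COL versus MAT. In MAT + COL versus CYST with the block 1 of 7 epithelial markers was called higher, beside 5.26% of genes called in either direction. There 0 of 9 stromal and 0 of 5 smooth muscle markers were called. DESeq2 called 4 epithelial, 0 stromal and 2 smooth muscle markers, beside 12.2% of genes. The part of the markers in the values of the lists was not tested.

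**Figure D4:**
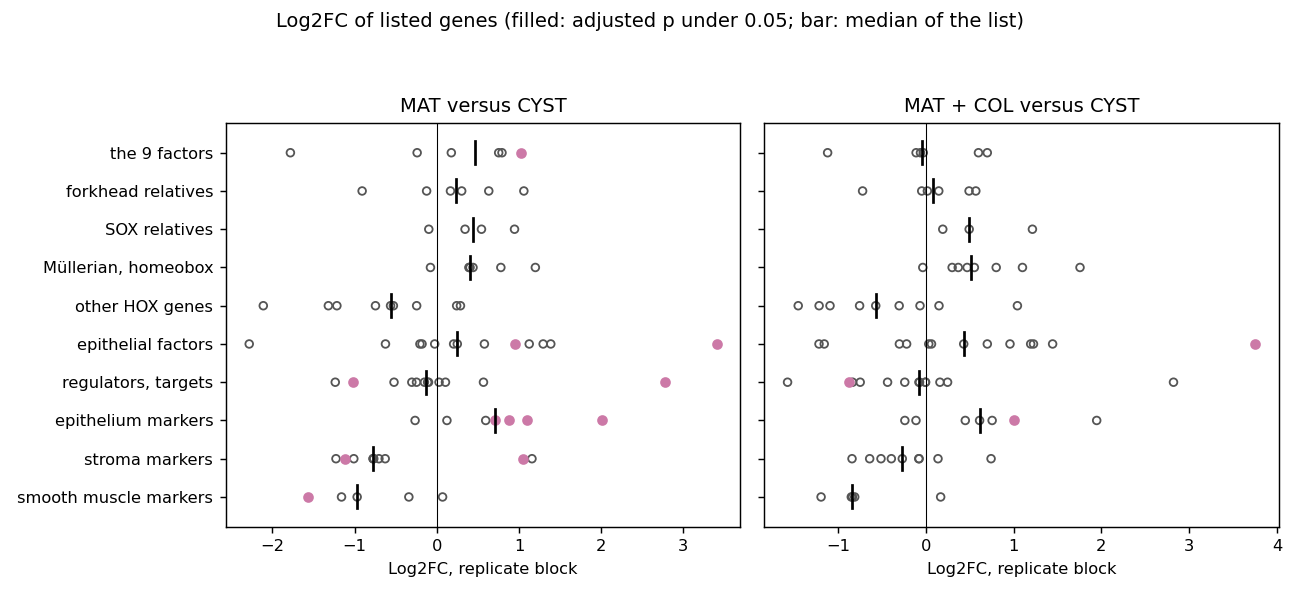
Log2FC with the replicate block (horizontal axes) of each tested gene on the named lists in MAT versus CYST and MAT + COL versus CYST, filled where the adjusted p was under 0.05, with a bar at the median of the list. MSX1 is the 1 filled point among the 9 factors on the left, GRHL3 at 3.41 and TFF3 at 2.77 are the points farthest to the right there, and 0 of the factors are filled on the right.

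On the bovine assembly ARS-UCD2.0 the 9 genes lie on 8 chromosomes as counted by the deposited annotation. MSX1 lies at chr6:104281506-104285802 on the minus strand, SOX9 at chr19:58918578-58923031 on the minus strand and FOXA2 at chr13:41542246-41546933 on the minus strand. PAX8 lies at chr11:46917078-46981526 on the minus strand, and a RefSeq lncRNA, LOC132346580, overlaps it. EMX2 lies at chr26:37830786-37837033 on the plus strand, FOXA1 at chr21:47772978-47787583 on the minus strand and SOX17 at chr14:22229727-22231852 on the plus strand. HOXA11 at chr4:68857083-68860798 and HOXA10 at chr4:68862754-68872131 lie on the plus strand with 1956 bases between them. The libraries do not mark strand, so reads from any sequence shared by PAX8 and the lncRNA cannot be told apart by strand. The overlap is between whole gene spans, and whether exons overlap was not examined.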

How the data were processed

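The 9 RNA libraries were made with the SMART-Seq HT PLUS kit, which does not mark strand. The authors used CLC Genomics Workbench to align the reads to ARS-UCD2.0, and deposited unnormalized read counts per gene with TPM of the same genes. The annotation release, the setting for strand and whether read pairs or single reads were counted are not given in the sources used here. All per-sample columns were used. Conditions and replicate numbers came from the labels, and doses and medium from the study's methods. The labels name no animals. The study's text speaks of individuals for the MAT and MAT + COL libraries, without saying which libraries came from which animal, so p-values measure the spread between these libraries.

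Each comparison was fitted to the counts of its 6 libraries with edgeR 4.0.16 in R 4.3.3 (filterByExpr at a minimum count of 10, TMM, glmQLFit, glmQLFTest). DESeq2 1.42.0 and limma 3.58.1 on log2(TPM + 1) were alternatives. Intervals and the floor of 3 reads cover counting error or the spread between libraries only, since PCR reads carried no molecular identifiers. As a check of pairing, same-numbered libraries were correlated in their deviations from the group means, and the 9 correlations were between 0.293 and 0.673, each the best match of its library. The replicate number was therefore taken to pair libraries, from the data and the replicate numbers in the sample titles. The column names carry other numbers, in replicate order 1, 2 and 4 for CYST, 1, 3 and 7 for MAT, and 2, 4 and 8 for MAT + COL. These numbers do not match across the groups, so the labels alone do not establish the pairing. No pair of libraries was within sampling noise.

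The factors and lists were chosen with earlier results of these data known. All 9 factors are named. From the lists, a gene is named if it was called in any comparison with or without the block, or had the highest median TPM of its list, and for each factor the 2 genes with the highest Pearson r. HOXA6, ELF3, TFAP2C and genes at 0 reads were named after their values were seen. Figures used matplotlib 3.10.9 in Python 3.11.15. Sequences were not analysed here.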

Additional observations from a re-analysis of the deposited data

How the results depend on the processing

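Alternatives were set against the fit without the block. No factor was called in that fit in any comparison, so no call could be lost. Of 321 Log2FC values of the tested factors under alternatives, 297 kept their direction and stayed uncalled, and 17 turned sign. The other 7 kept their direction and passed the threshold. HOXA10 in MAT versus CYST had no adjusted p with DESeq2 and is held among the 297. In MAT versus CYST the 216 genes called became 1278 with DESeq2, 1277 with the replicate block, 580 with all 9 libraries in the fit, 2118 with these and the block, 957 with the likelihood ratio test and 71 with limma on log2(TPM + 1) without a filter. Leaving out a library gave 5 (without CYST replicate 2) to 267. The 0 factors called became 1, MSX1, with DESeq2, the block, all 9 libraries with the block and the likelihood ratio test. In the blocked fit without replicates 1, 2 and 3 it was 0, 1 and 2, the last being MSX1 and SOX9. It was 0 to 0 when single libraries were left out. The adjusted p of MSX1 ranged from 0.00804 to 0.226 over 20 alternatives, and MSX1 was called in 6 of them. In MAT + COL versus CYST the 186 genes became 1524 with DESeq2, 658 with the block, 601 with all 9 libraries, 2035 with these and the block, 1004 with the likelihood ratio test, 53 with limma without a filter, and 3 (without MAT + COL replicate 2) to 186 with a library left out. The block changed no other call of a factor. Some Log2FC values turned sign with single libraries left out. In MAT versus CYST FOXA2 ranged from −0.34 (without MAT replicate 3) to 1.89. In MAT + COL versus MAT FOXA2 ranged from −2.12 to 0.44 and PAX8 from −0.063 to 0.38, both turning without MAT replicate 3, and HOXA10 from −0.11 (without MAT + COL replicate 2) to 1.40. In MAT + COL versus CYST FOXA2 ranged from −0.97 (without MAT + COL replicate 3) to 0.82, PAX8 from −0.35 to 0.11 (without CYST replicate 1) and EMX2 from −0.27 to 0.030 (without CYST replicate 1). There FOXA2 also turned with the block (−0.060), with all 9 libraries and the block (−0.27) and downsampled to the smallest library (−0.11), and PAX8 with limma on log2(TPM + 1) (0.039, with or without a filter) and on log2(TPM + 0.1) (0.042). The cause was not tested. Depth limits FOXA1, SOX17, HOXA11 and HOXA10 most.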
